A study of Mus musculus with 6 samples.

Results

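Surface proteins are the handles by which skeletal stem and stromal cells are recognised and sorted. Here 10 genes for such proteins were followed in cultured bone cells sorted for a Prx1-lineage reporter, from WT mice and mice with Zeb1 targeted in that lineage. Macrophage genes were also abundant in these libraries, so a level cannot be assigned to stromal cells alone. The 10 genes were chosen by name: Lepr, Kitl, Pdgfra, Pdgfrb, Ly6a, Thy1, Nt5e, Eng, Cd44 and Mcam each had 1 row among the 54532 genes of the deposited expression table. No measured value entered the choice, although earlier results of these libraries were known when the names were listed.

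Both groups consisted of mice with Prx1-Cre, a recombinase driven by a limb-mesenchyme promoter, and a ROSA-YFP reporter that Cre switches on. WT mice had the genotype Zeb1wt/wt, and mice named Zeb1Prx1 had Zeb1fl/fl, so that Cre removes Zeb1 in the Prx1 lineage. Cells came from collagenase-treated chips of femur and tibia, grown in culture and then sorted for the fluorescent reporter, without further treatment. There were 3 libraries per genotype, and the sources used here give neither age nor sex nor the mice or cultures behind each replicate. The p-values therefore reflect spread among these libraries alone, which may be technical.

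As background, leptin receptor and the cytokine KIT ligand mark marrow stromal cells that lie along sinusoids and support blood stem cells, together with the chemokine CXCL12. PDGF receptors alpha and beta are tyrosine kinases that drive mesenchymal growth and migration, and PDGFRA with SCA-1 (Ly6a) is used to isolate mouse stromal progenitors. THY1 (CD90), NT5E (CD73), endoglin (CD105), CD44 and MCAM (CD146) belong to the panels used to define cultured mesenchymal stromal cells. Zeb1 encodes a zinc-finger repressor best known for silencing epithelial genes.

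The libraries held 14724357 to 18354894 fragments assigned to genes. Zeb1, the targeted gene, averaged 8.0 ± 1.98 FPKM (fragments scaled by gene length and library size, SD, n = 3) across WT and 2.12 ± 0.646 across mutant libraries, with every mutant library below every WT library. Zeb1Prx1 replicate 2 stood apart in its FPKM sum, 372566 against 278987 to 312038 in the others. Xist, transcribed from an inactive X chromosome, had 26.8 to 40.4 FPKM in WT and 0.0031 to 12.6 in Zeb1Prx1, so sex-linked differences and genotype cannot be told apart. Of 15 genes fixed as markers of skeletal stroma, 14 passed the filter on low values, led by Col1a1, Fn1 and Col1a2 (mean FPKM of the 6 libraries 2008, 1032 and 729). Macrophage genes were abundant beside them: all 25 on the list passed the filter, led by Lyz2 (mean 10197 FPKM), and their FPKM summed to 14627 to 17742 per WT library and 12035 to 23984 per mutant library. Summed FPKM was 2.64 to 6.04 for 12 endothelial genes and 0.677 to 2.12 for 12 lymphocyte genes. In bulk libraries, fewer cells of a type and less RNA per cell cannot be told apart.

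**Figure D1:**
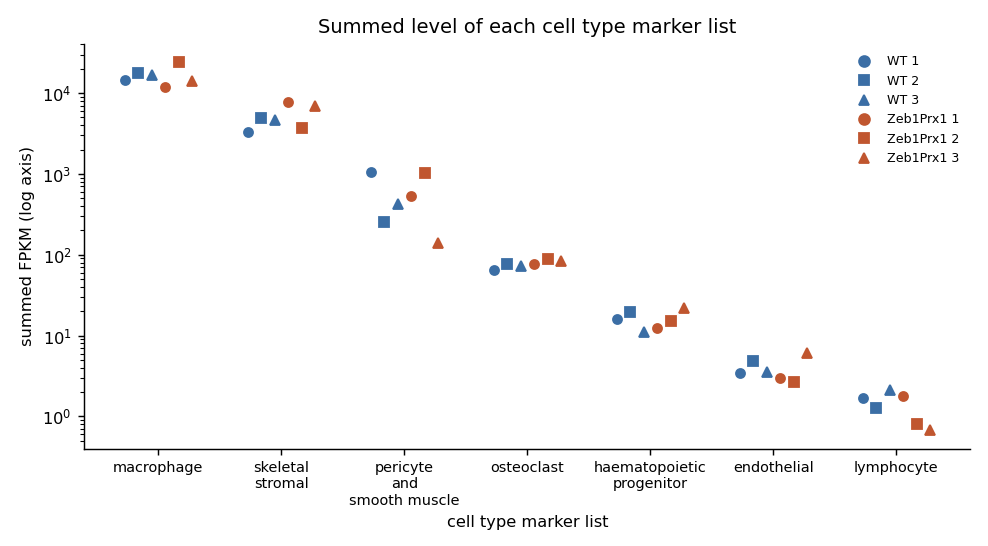
Summed FPKM (log axis) of 7 cell type marker lists in each library, with WT in blue, Zeb1Prx1 in orange and the replicate number shown by the marker shape. The macrophage list lies highest in all 6 libraries (12035 to 23984), skeletal stromal genes come next, and endothelial and lymphocyte genes sum to 6.04 FPKM or less.

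Levels of the markers spanned a wide range in both genotypes, on the FPKM scale, which corrects for gene length. In WT, Ly6a had the highest mean (176 FPKM), followed by Cd44 (64.3), Pdgfrb (34.4), Thy1 (31.4), Eng (20.8), Pdgfra (16.0), Mcam (4.74), Kitl (3.87), Nt5e (2.48) and Lepr (0.343). Ly6a was first and Lepr last in each of the 6 libraries, and Cd44 was second in 5 of them. Between these ends, neighbours overlapped in their WT values: Cd44 with Pdgfrb, Pdgfrb with Thy1, Thy1 with Eng, and Eng with Pdgfra. The WT values of Pdgfra (2.65 to 30.2 FPKM) also overlapped those of Mcam, Kitl and Nt5e, which overlapped each other. Ly6a lay at the 98.8th percentile of tested genes by mean level, Cd44 at the 93.4th, Pdgfrb at the 86.4th, and Kitl and Mcam at the 31.3rd and 27.4th.

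**Figure D2:**
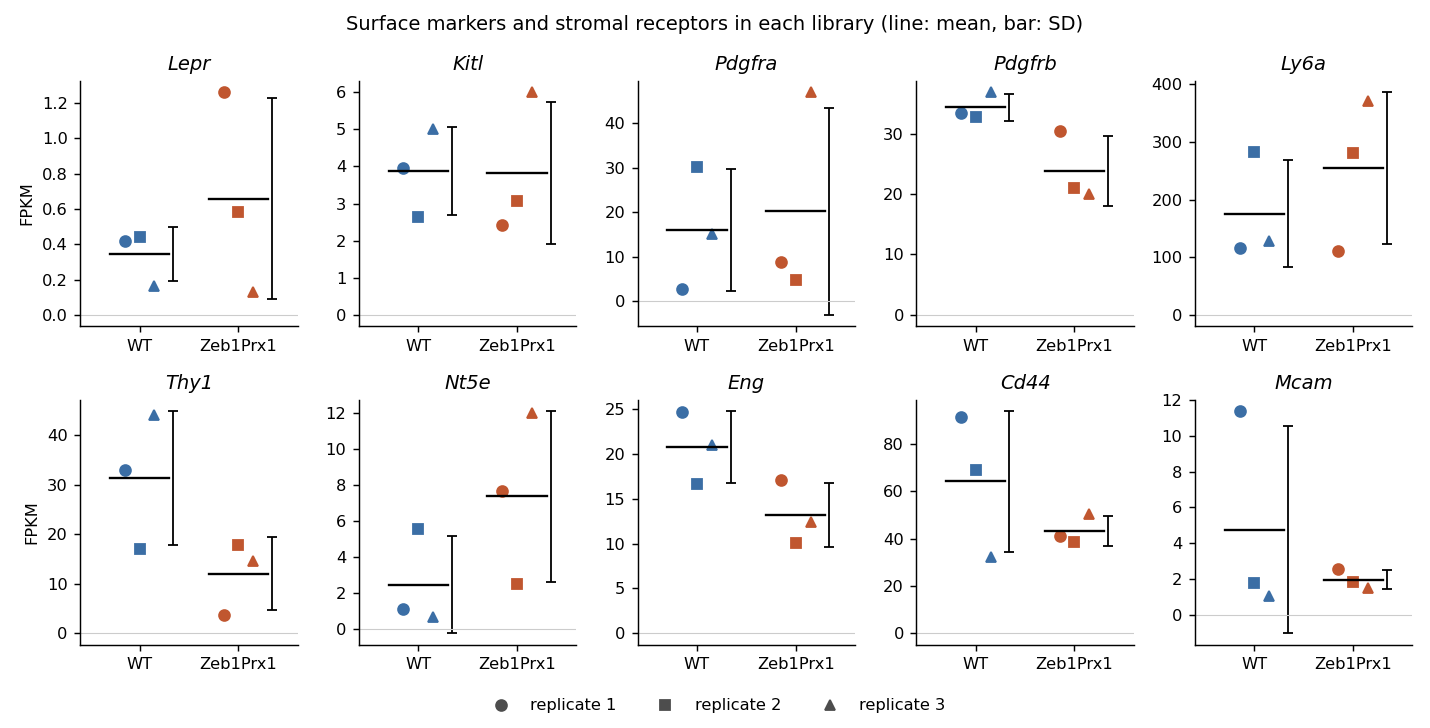
FPKM of each of the 10 genes (1 panel per gene, linear axes) in the WT and Zeb1Prx1 libraries; points are libraries with the replicate number as shape, the horizontal line is the mean and the bar is ± 1 SD. Pdgfrb is the 1 gene whose genotypes do not overlap, while Pdgfra and Ly6a spread as widely within a genotype as between genotypes.

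Of the 10 genes, 9 passed the filter (at least 1 FPKM in at least 3 of 6 libraries), and Lepr did not. None of the 9 passed the test across all genes, limma on log2(FPKM + 1) with Benjamini-Hochberg adjustment at 0.05, and neither did any other gene, the percentage called being 0% of 12534. The voom method of limma on recovered fragments called 0 of the 9 as well. At an unadjusted p under 0.05, limma counted 3 of the 9, Pdgfrb, Eng and Thy1, all lower in Zeb1Prx1. Of all tested genes, 15.1% were under 0.05 in either direction, 6.98% lower and 8.15% higher in the mutant. Without WT replicate 1 this count was 0, and without WT replicate 3 or Zeb1Prx1 replicate 3 it was 1 (Cd44 and Thy1, respectively); the share of all genes tested in these fits was 10.6%, 9.25% and 9.67%. The genotypes did not overlap for 1 of the 9, Pdgfrb, and for 24.4% of all tested genes (11.8% with lower values in Zeb1Prx1). Among all 10 genes this count was 4 without WT replicate 2, 3 without Zeb1Prx1 replicate 2, and 2 without WT replicate 3, Zeb1Prx1 replicate 1 or Zeb1Prx1 replicate 3. With fewer libraries, overlap was also absent for more of all tested genes, 32.4%, 34.4%, 32.0%, 43.2% and 30.3% in these 5 settings. The median log2 change was -0.45 for the 9 tested genes, 6 of them below 0, and 0.02 for all tested genes.

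**Figure D3:**
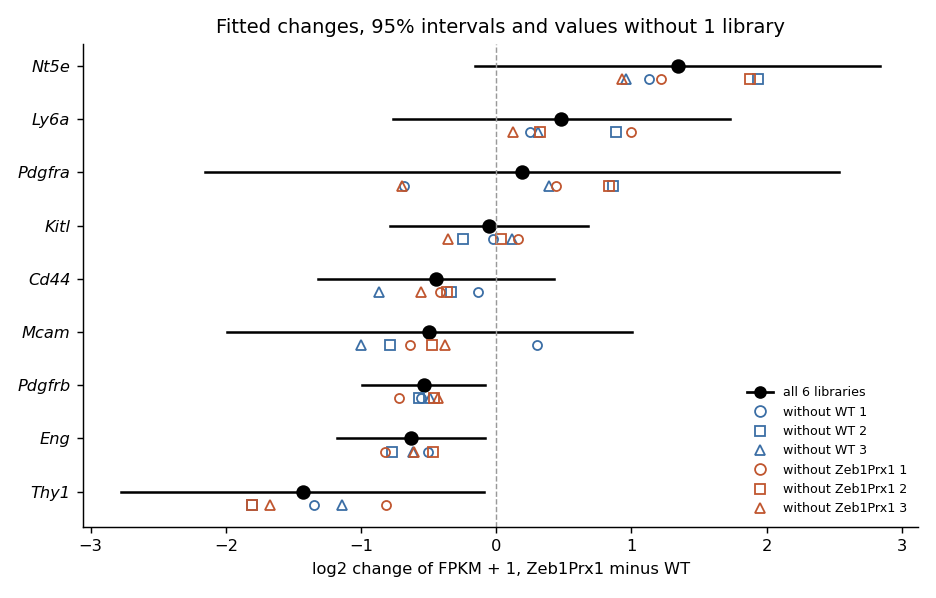
Fitted log2 change of FPKM + 1 (Zeb1Prx1 minus WT, x axis) for the 9 tested genes; black points with lines are estimates with 95% intervals, and open symbols are the same estimate with the named library left out. The intervals of Pdgfrb, Eng and Thy1 lie below 0, and Pdgfra, Kitl and Mcam cross 0 when 1 library is left out.

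Among the receptors, Pdgfrb (ENSMUSG00000024620, mm10 chromosome 18, 61045150 to 61085061, plus strand) was the most even. PDGFRB binds PDGF-BB and is typical of pericytes and stromal cells. Its FPKM was 33.4, 32.8 and 36.9 in WT replicates 1 to 3 and 30.4, 20.9 and 19.9 in Zeb1Prx1 replicates 1 to 3. Every mutant value lay below every WT value, with replicate 1 closest to WT. The mutant mean was 0.692-fold that of WT (34.4 ± 2.19 against 23.8 ± 5.78, SD, n = 3), a log2 change of -0.54 (SE 0.19, 95% interval -0.99 to -0.08, limma adjusted p = 0.298). The estimate stayed between -0.72 and -0.43 when any 1 library was left out.

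Pdgfra (ENSMUSG00000029231, chromosome 5, 75152292 to 75198215, plus strand), the receptor shared by several PDGF dimers and the defining antigen of many mesenchymal progenitors, was far less even. It had 2.65, 30.2 and 15.1 FPKM in WT and 8.92, 4.73 and 47.0 in the mutant. The highest library exceeded the lowest 11.4-fold within WT and 9.95-fold within Zeb1Prx1, and the genotypes overlapped over most of that range. The counts behind the extremes, 486 fragments in WT replicate 1 and 7201 in Zeb1Prx1 replicate 3, give exact 95% Poisson intervals of 2.42 to 2.90 and 46.0 to 48.1 FPKM, which cover counting error only. The log2 change was 0.19 (SE 0.99, interval -2.15 to 2.54, limma adjusted p = 0.930). Leaving out WT replicate 1 gave -0.68 and leaving out Zeb1Prx1 replicate 3 gave -0.70, so 1 library decided its sign.

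The PDGF ligand genes, all 4 of which passed the filter, gave no call. Pdgfa had 17.9 to 28.0 FPKM in WT and 16.5 to 31.4 in Zeb1Prx1, and Pdgfb, whose product activates both receptors, 6.89 to 12 and 2.05 to 8.21. Pdgfc had 6.73 to 12.2 in WT and 11.7 to 14.3 in Zeb1Prx1, and Pdgfd 3.99 to 11.1 and 2.97 to 9.34. Each ligand overlapped between the genotypes.

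Lepr (ENSMUSG00000057722, chromosome 4, 101717404 to 101815352, plus strand), the leptin receptor, was detected in every library at a low level. Its FPKM was 0.419, 0.443 and 0.166 in WT, from 54, 48 and 18 fragments, and 1.26, 0.582 and 0.13 in Zeb1Prx1, from 143, 74 and 14. One library, Zeb1Prx1 replicate 1, reached 1 FPKM, and the genotypes overlapped at the low end. The mutant mean was 1.92-fold that of WT and 1.04-fold without Zeb1Prx1 replicate 1. Fitted without the filter, the log2 change was 0.25 (SE 0.26, interval -0.38 to 0.89, limma adjusted p = 0.702). The gene for leptin itself, Lep, was listed at 0 in all 6 libraries, where a count of 0 allows an upper limit of 0.163 to 0.204 CPM (counts scaled to library size), depending on the library.

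Kitl (ENSMUSG00000019966, chromosome 10, 100015630 to 100100416, plus strand) encodes the membrane-bound or shed ligand of the receptor KIT on blood stem cells and mast cells. It had 3.95, 2.65 and 5.02 FPKM in WT and 2.42, 3.07 and 6.0 in the mutant. Replicate 3 was the highest library of each genotype, and the genotypes overlapped throughout. The means were 3.87 ± 1.19 and 3.83 ± 1.91 (SD, n = 3), a log2 change of -0.05 (SE 0.31, interval -0.78 to 0.68, limma adjusted p = 0.940), whose sign turned under 4 of the 16 alternatives that gave a value. The receptor gene Kit was at 0.0146 FPKM or less in every library, so the ligand was measured in libraries nearly free of its receptor's transcript.

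The proteins held by a lipid anchor, SCA-1, THY1 and NT5E, had estimates of different sign. Ly6a (ENSMUSG00000075602, chromosome 15, 74994877 to 74998031, minus strand), the stem cell antigen SCA-1, had 117, 283 and 127 FPKM in WT and 111, 281 and 370 in the mutant. One WT library was high against 2 of the mutant libraries, and Zeb1Prx1 replicate 1 was slightly below the lowest WT library. The log2 change was 0.48 (SE 0.53, interval -0.76 to 1.73, limma adjusted p = 0.649), and the fold of means, 1.45, became 2.08 without WT replicate 2 and 1.12 without Zeb1Prx1 replicate 3. Ly6a lies in a cluster of related genes, and fragments matching its relatives are uncertain to that extent.

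Thy1 (ENSMUSG00000032011, chromosome 9, 44043384 to 44048579, plus strand), the adhesion antigen CD90 of fibroblasts, neurons and T cells, had 32.9, 17.1 and 44.1 FPKM in WT and 3.78, 17.7 and 14.7 in the mutant. All mutant libraries lay below WT replicates 1 and 3, and WT replicate 2 lay among them. The low value of Zeb1Prx1 replicate 1 came from 182 fragments, a Poisson interval of 3.25 to 4.37 FPKM. The means were 31.4 ± 13.6 and 12.1 ± 7.34 (SD, n = 3), a fold of 0.385 and a log2 change of -1.43 (SE 0.57, interval -2.78 to -0.09, limma adjusted p = 0.319). The estimate was -0.82 without Zeb1Prx1 replicate 1 and -1.80 without Zeb1Prx1 replicate 2. The T cell gene Cd3e had 0 to 0.0407 FPKM in the 6 libraries.

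Nt5e (ENSMUSG00000032420, chromosome 9, 88327197 to 88372092, plus strand), the ectoenzyme CD73 that turns AMP into adenosine, had the largest positive estimate among the 9. It had 1.16, 5.59 and 0.704 FPKM in WT and 7.68, 2.5 and 12 in the mutant. Mutant replicates 1 and 3 exceeded every WT library, while mutant replicate 2 lay below WT replicate 2. The mutant mean was 2.97-fold that of WT (2.48 ± 2.70 against 7.38 ± 4.73, SD, n = 3), a log2 change of 1.34 (SE 0.63, interval -0.16 to 2.84, limma adjusted p = 0.357). Without WT replicate 2 the fold was 7.93 and without Zeb1Prx1 replicate 3 it was 2.05. Entpd1, which makes the AMP that CD73 uses, had 16.3 to 19.9 FPKM in WT and 12.4 to 19.8 in Zeb1Prx1, and the genotypes overlapped.

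Eng (ENSMUSG00000026814, chromosome 2, 32646595 to 32682669, plus strand) encodes endoglin, a co-receptor for TGF-beta and BMP ligands. It had 24.7, 16.6 and 21 FPKM in WT and 17.1, 10.0 and 12.4 in the mutant. The highest mutant library, replicate 1, was just above the lowest WT library, and the other mutant libraries lay below all of WT. The means were 20.8 ± 4.05 and 13.2 ± 3.59 (SD, n = 3), a fold of 0.635 and a log2 change of -0.63 (SE 0.23, interval -1.18 to -0.08, limma adjusted p = 0.302). Eng overlaps Fpgs on the opposite strand, which had at most 6.42 FPKM; strand use in counting is not stated, so their fragments may be mixed. Of its signalling partners, Acvrl1 (ALK1) had 5.63 to 8.47 FPKM in WT and 4.33 to 5.68 in Zeb1Prx1, Tgfbr2 54.4 to 70.0 and 40.4 to 60.6, and Gdf2, the gene of the ligand BMP9, was listed at 0 throughout.

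Endoglin is also abundant on endothelium and on some macrophages. Of the 12 endothelial genes, Cldn5 was at 0 in every library, Pecam1 and Cdh5 reached at most 0.116 and 0.0528 FPKM, and Vwf alone was tested (1.76 to 2.64 FPKM in WT, 0.905 to 1.48 in Zeb1Prx1). Erg reached 3.87 FPKM in Zeb1Prx1 replicate 3 (means 0.444 in WT and 1.46 in Zeb1Prx1), and Egfl7 had means of 0.331 and 0.569; both overlapped between the genotypes. The macrophage list had 20 of 25 members below 0, with a median log2 change of -0.32, and 10 of the 25 did not overlap between genotypes, all with lower values in Zeb1Prx1, beside 11.8% of all tested genes in that direction. Adgre1, which encodes F4/80, was at 215 to 250 FPKM in WT and 117 to 164 in Zeb1Prx1. The other 5 of the 25 had changes above 0, and the most abundant list genes went both ways. Mean FPKM in WT and Zeb1Prx1 was 9542 and 10853 for Lyz2, 781 and 901 for Ctss, and 1184 and 1042 for C1qb. The part of macrophage transcripts in the lower values of Eng and Cd44 was not tested.

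Cd44 (ENSMUSG00000005087, chromosome 2, 102811141 to 102901665, minus strand), the hyaluronan receptor of stromal cells and leukocytes, had 91.4, 69.0 and 32.4 FPKM in WT and 41.1, 38.5 and 50.4 in the mutant. WT replicates 1 and 2 were above all mutant libraries, and WT replicate 3 was below all of them. The log2 change was -0.45 (SE 0.37, interval -1.32 to 0.43, limma adjusted p = 0.544), -0.13 without WT replicate 1 and -0.87 without WT replicate 3. Has2, which makes hyaluronan, had 4.80 to 6.15 FPKM in WT and 4.56 to 9.02 in Zeb1Prx1. Spp1, the gene of the CD44 ligand osteopontin, had 1802 to 4127 and 2669 to 4408. Neither Has2 nor Spp1 separated the genotypes.

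Mcam (ENSMUSG00000032135, chromosome 9, 44134469 to 44142727, plus strand), an adhesion molecule of pericytes and endothelium, had 11.4, 1.77 and 1.05 FPKM in WT and 2.56, 1.84 and 1.49 in the mutant. WT replicate 1, with 700 fragments, stood far above the next WT library, and the other 5 libraries lay between 1.05 and 2.56 FPKM. The log2 change was -0.50 (SE 0.63, interval -1.99 to 1.0, limma adjusted p = 0.701) and 0.30 without WT replicate 1, where the fold of means turned from 0.414 to 1.39.

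Spread between libraries of the same genotype was wide for most of these genes. The SD within a genotype on log2(FPKM + 1) had a median of 0.81 for the 9 tested genes and 0.25 for all tested genes. Pdgfra (SD 1.59) lay at the 99.7th percentile of tested genes, Nt5e and Mcam at the 98.3rd, Thy1 at the 97.5th, Ly6a at the 96.6th and Cd44 at the 90.7th. Pdgfrb (SD 0.23, 46.0th percentile) and Eng (SD 0.32, 65.7th percentile) varied about as much as other genes. The median ratio of the highest to the lowest library was 2.58 within WT and 2.48 within Zeb1Prx1 for the 9 genes, against 1.3 and 1.55 for all tested genes.

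**Figure D4:**
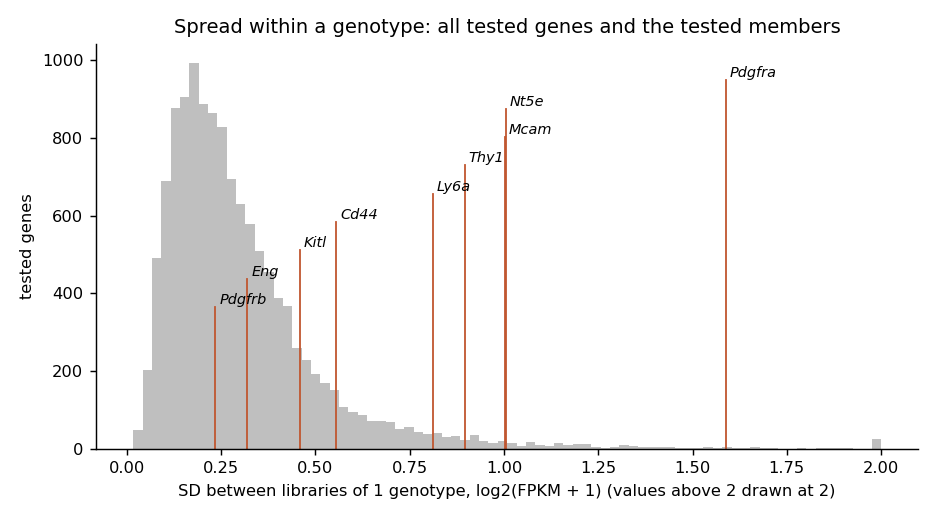
Histogram of the SD between libraries of the same genotype, in log2(FPKM + 1), over all 12534 tested genes, with the 9 tested markers drawn as labelled lines. Pdgfra lies far in the upper tail (1.59), whereas Pdgfrb (0.23) lies near the middle of the histogram.

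The wide spread of Pdgfra had an order that crossed the genotypes, which other markers shared only in part or not at all. Ranked by Pdgfra, the libraries ran from Zeb1Prx1 replicate 3 (47.0 FPKM) through WT replicate 2, WT replicate 3, Zeb1Prx1 replicate 1 and Zeb1Prx1 replicate 2 down to WT replicate 1 (2.65). Acta2, the smooth muscle actin gene of myofibroblasts and the most abundant gene of the pericyte and smooth muscle list, ran in exactly the reverse order: 121, 226, 387, 489, 985 and 988 FPKM. Cnn1, the next most abundant gene of that list, had 62.4, 9.20 and 27.4 FPKM in WT and 24.6, 44.8 and 10.2 in the mutant. Like Acta2, it was highest in WT replicate 1 and Zeb1Prx1 replicate 2 and lowest in WT replicate 2 and Zeb1Prx1 replicate 3. Cspg4 (NG2) of the same list did not share the order of Acta2: it had 2.70, 11.9 and 2.49 FPKM in WT and 9.06, 1.82 and 8.60 in the mutant. Nt5e and Ly6a were highest in Zeb1Prx1 replicate 3, and within WT in replicate 2, as Pdgfra was. Their lowest libraries differed from that of Pdgfra: WT replicate 3 for Nt5e (0.704 FPKM) and Zeb1Prx1 replicate 1 for Ly6a (111). Thy1 and Cd44 did not share the order: Thy1 was highest in WT replicate 3 (44.1 FPKM) and Cd44 in WT replicate 1 (91.4). Dcn, a matrix proteoglycan gene of fibroblasts named after its values were seen, had 576 FPKM in Zeb1Prx1 replicate 3, 204 in WT replicate 2 and 3.30 in WT replicate 1. Between these, Dcn had 30.2 in WT replicate 3, 47.1 in Zeb1Prx1 replicate 1 and 31.1 in Zeb1Prx1 replicate 2, not in the order of Pdgfra. Mcam had its single high value in WT replicate 1, the library with the most Acta2 and the least Pdgfra.

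**Figure D5:**
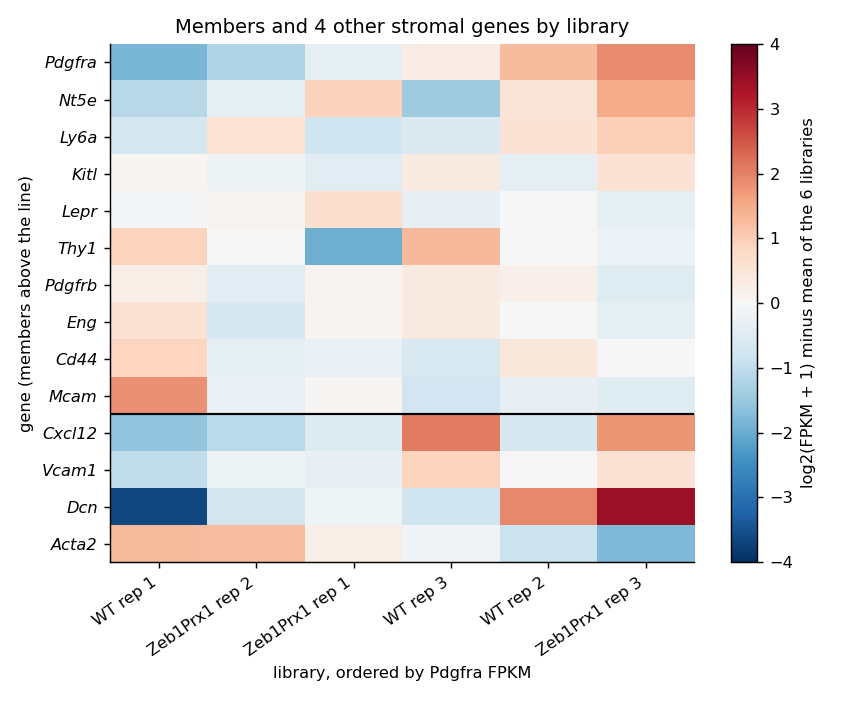
Log2(FPKM + 1) minus the mean of the 6 libraries (colour) for the 10 markers and, below the line, Cxcl12, Vcam1, Dcn and Acta2; columns are libraries ordered by Pdgfra FPKM. In Zeb1Prx1 replicate 3 and WT replicate 2, Pdgfra and Dcn are high and Acta2 is low, Cxcl12 is high in replicate 3 of each genotype, and both genotypes occur at each end of the order.

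KIT ligand and CXCL12 are made by the same marrow stromal cells, and their transcripts were highest in the same libraries. Cxcl12, named after its values were seen like Vcam1, had 5.74, 12 and 83.5 FPKM in WT and 12.8, 8.50 and 67.3 in the mutant. Vcam1, a further antigen of these cells, had 2.77, 6.49 and 12.8 in WT and 4.88, 5.45 and 10.0 in the mutant. Replicate 3 of each genotype was thus the highest in Kitl, Cxcl12 and Vcam1, and it was the lowest in Lepr (0.166 and 0.13 FPKM). Neither Cxcl12 nor Vcam1 passed the test between genotypes (limma adjusted p = 0.968 and 0.973).

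Other markers of stromal stem cells were read from a list of 20 genes, of which 15 passed the filter and 0 passed the test. At an unadjusted p under 0.05 limma counted 3 of the 15, beside 15.1% of all tested genes: Grem1 and Itgav lower and Foxc1 higher in Zeb1Prx1. Grem1, a BMP antagonist that marks skeletal progenitors, had 71.0, 83.4 and 21.2 FPKM in WT and 16.4, 16.5 and 16.0 in the mutant (log2 change -1.57, SE 0.48, limma adjusted p = 0.275). Every mutant library lay below every WT library, and the mutant values were nearly equal. Itgav, the integrin alpha-v chain that binds THY1, had 56.9, 48.4 and 38.3 against 35.6, 27.9 and 25 FPKM without overlap (log2 change -0.68, SE 0.21, limma adjusted p = 0.278). Foxc1, a transcription factor of CXCL12-rich stroma, had 4.82, 9.04 and 4.85 against 18.7, 7.15 and 30.6 FPKM and overlapped (log2 change 1.3, SE 0.49, limma adjusted p = 0.305). Nes, Alcam and Cd63 followed, with adjusted p between 0.381 and 0.404. The genotypes did not overlap for 3 of the 15, 1 higher and 2 lower in Zeb1Prx1, beside 24.4% of all tested genes. Across the 15, 8 changes were above 0 and 7 below, with a median of 0.03.

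Ligands, receptors and enzymes that act with the 10 proteins formed a list of 48 genes, of which 39 passed the filter and 0 passed the test. At an unadjusted p under 0.05 limma counted 7 of the 39, 2 higher and 5 lower, beside the 15.1% of all tested genes. This count was 2 without WT replicate 1 or 2 (10.6% and 9.1% of all genes tested in these fits), 4 without WT replicate 3 (9.25%) and 1 without Zeb1Prx1 replicate 3 (9.67%). It was 8 without Zeb1Prx1 replicate 1 (23.0%), 9 without Zeb1Prx1 replicate 2 (14.1%) and 15 with library weights (30.8%). Of the genes for linkers between CD44 and the actin cortex, Msn and Ezr had estimates of opposite sign and Rdx was near 0. Rdx (radixin) averaged 32.7 FPKM in WT and 31.3 in the mutant (log2 change -0.06, SE 0.16, limma adjusted p = 0.854). Msn (moesin) had 202, 165 and 143 FPKM in WT and 127, 88.4 and 96.7 in the mutant (log2 change -0.70, SE 0.22, limma adjusted p = 0.278). Ezr (ezrin), more typical of epithelia, had 10.1, 6.74 and 6.61 against 13.0, 10.3 and 18.5 FPKM (log2 change 0.75, SE 0.25, limma adjusted p = 0.290), and neither overlapped between the genotypes. The proteases Adam10 and Adam17, which shed CD44 and other surface proteins, were lower without overlap (37.4 ± 2.57 against 27.9 ± 3.46 and 30.4 ± 1.69 against 22.9 ± 3.16 FPKM, SD, n = 3). Tgfbr1, the kinase receptor that signals with endoglin, had 37.1 ± 5.93 against 23.2 ± 7.2, and Itgb3, an integrin chain also present on osteoclasts, 4.33 ± 0.682 against 2.70 ± 0.747. The adjusted p of these 4 genes by limma was 0.298 to 0.309. The genotypes did not overlap for 7 of the 39, 2 higher and 5 lower in Zeb1Prx1, beside 24.4% of all tested genes. The median log2 change of the 39 was -0.09, with 16 above 0 and 23 below.

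For each marker, the protein-coding gene whose log2(FPKM + 1) followed it most closely over the 6 libraries was sought among 11121 tested genes by Pearson's r, as a description without a test. Mcam was followed most closely by Tgfb3 (likeness 0.996), Pdgfra by Ptgis, the prostacyclin synthase gene (0.995), and Pdgfrb by Atp8a1 (0.997). In both Mcam and Tgfb3, WT replicate 1 stood far above the other libraries (11.4 FPKM against at most 2.56, and 47.0 against at most 26.5). Eng was followed by Ipo9 (0.997), Nt5e by Kctd9 (0.991), Kitl by Gm14305 (0.990), Cd44 by Qpctl (0.988), Ly6a by Dolk (0.985), Thy1 by Brd9 (0.973) and Lepr by Fam173b (0.963). With 6 libraries and so many genes searched, high values are common: 484 genes exceeded 0.9 for Pdgfrb and 324 for Eng, against 15 for Kitl.

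Promoter sequences are shown because the protein encoded by the targeted gene binds DNA. Zeb1 recognises the E-box letters CACCTG and the shorter CACCT contained in them. RefSeq windows (GRCm38.p6, the assembly of mm10), from 250 bases before to 50 after the start, were found for 7 of the 10 genes, in 8 windows; Pdgfrb, Ly6a and Thy1 had none. CACCTG occurred on either strand in the windows of 2 of the 7, Lepr and Mcam, and in 20.2% of all 32851 windows; CACCT occurred in 4 of the 7, adding Eng and Pdgfra, and in 51.9% of all windows. Stretches of 60 bases of the plus strand, the strand of all 4 genes, follow with the matched letters in capitals, at chr4:101717270-101717329 and chr4:101717347-101717406 for Lepr, chr9:44134419-44134478 for Mcam, chr2:32646414-32646473 for Eng and chr5:75152012-75152071 for Pdgfra.
Lepr, first: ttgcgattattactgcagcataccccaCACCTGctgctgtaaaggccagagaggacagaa
Lepr, second: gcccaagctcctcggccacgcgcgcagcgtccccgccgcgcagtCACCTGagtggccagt
Mcam: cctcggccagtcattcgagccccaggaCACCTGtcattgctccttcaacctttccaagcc
Eng: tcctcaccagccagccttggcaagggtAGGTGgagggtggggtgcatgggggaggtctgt
Pdgfra: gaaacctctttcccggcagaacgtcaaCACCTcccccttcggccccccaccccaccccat
Distances are counted from the RefSeq start inside each window, which has 250 bases before it. This RefSeq start can differ from the gene start given with the coordinates above. For Mcam the window ran from 44134408 to 44134707 and the gene start above is 44134469, so the stretch shown runs past that gene start. The Lepr matches shown begin 110 and 16 bases before the RefSeq start, that of Mcam 212, that of Eng (as the reverse complement AGGTG) 154 and that of Pdgfra 212. The Lepr window holds CACCT at 2 further places, not shown, which begin 243 bases before the start (as AGGTG) and 35 bases after it. All 7 genes with a window overlapped between the genotypes: Lepr and Mcam with CACCTG, Eng and Pdgfra with CACCT alone, and Kitl, Nt5e and Cd44 with neither. A match describes the letters of these windows and is no measurement of binding.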

How the data were processed

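Gene-level FPKM values, deposited by the authors in 1 table, were read for 6 libraries (3 WT, 3 Zeb1Prx1); per the file headers the table also gives gene names, coordinates and lengths. Per the submitters' processing notes, mm10 was the build; 98.3% of the 54495 gene identifiers found in GENCODE M21 had identical coordinates. Aligner, counter and strand use: not given in the sources used here. In each library, FPKM times gene length fell on whole multiples of a constant (127408 of 127408 values above 0, relative tolerance 1e-06), which gave 14724357 to 18354894 fragments per library; FPKM remained the unit of the main test.

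Genes with at least 1 FPKM in at least 3 libraries (12534) were transformed to log2(FPKM + 1) and fitted in R 4.3.3 with limma 3.58.1 and its intensity trend, Zeb1Prx1 minus WT, with Benjamini-Hochberg adjustment over all of them (threshold 0.05). This scale understates changes of low genes. The code was tested on simulated data. The 10 genes, the gene lists and the rule for naming others (the 6 list genes with the smallest p per list, direct ligands and receptors, the top genes of each cell type list) were chosen with earlier results of these data known. Alternatives were other pseudocounts, filters, scalings, a replicate block, no trend, library weights, voom on recovered fragments and leaving out each library.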

Additional observations from a re-analysis of the deposited data

How the results depend on the processing

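None of the 10 genes passed the threshold under any of the 17 alternatives run that tested them (Lepr only without the filter; Kitl, Nt5e and Mcam not with a mean FPKM of at least 5). Across all genes, 0 were called except with library weights (447) and, leaving out each library in turn, 0 to 1, the 1 without Zeb1Prx1 replicate 2. The number of the 10 genes at an unadjusted p under 0.05 was 3, with 9 tested, beside 15.1% of all tested genes. Under the other settings, which tested 6 to 10 of them, it was 2 to 4, beside 9.72% to 30.8% of all tested genes. The 4 came with library weights, where that share was 30.8%. Leaving out each library, the number was 0 to 3, beside 9.10% to 23.0%. The number of the 10 without overlap was 1, beside 24.4% of all tested genes. After scaling every library to the same FPKM sum it was 2, beside 24.2%. With quantile normalization it was 2, where the share of all genes was not computed. Leaving out each library it was 1 to 4, beside 30.3% to 43.2%. With library weights the log2 change of Kitl was 0.31 and that of Pdgfra 1.12 (0.19 as first fitted). Leaving out each library, that of Kitl ranged from -0.36 to 0.16, that of Pdgfra from -0.70 to 0.87 and that of Mcam from -1.0 to 0.30; the cause was not tested. Pdgfrb, Eng, Thy1, Cd44, Ly6a and Nt5e kept their sign in all alternatives that gave a value. Of the other named genes, for which the alternatives were chosen after seeing the data, Zeb1, Foxc1 and Ezr passed with library weights (limma adjusted p = 0.042, 0.0485 and 0.0485). Scaling to the same FPKM sum moved the median log2 change of all genes from 0.02 to -0.12; at an unadjusted p under 0.05, 1022 genes were higher and 875 lower as first fitted and 614 and 1270 after this scaling; voom gave 747 and 1184. The labels state no pairing by replicate number. Deviations of same-numbered libraries from their genotype means correlated at 0.03, -0.41 and 0.08 over tested genes. For differently numbered libraries they ranged from -0.48 (WT replicate 1 with Zeb1Prx1 replicate 3) to 0.46 (WT replicate 2 with Zeb1Prx1 replicate 3). Such deviations sum to 0 within a genotype, so these correlations cannot decide whether libraries were paired. With the replicate block, 0 genes were called. Of the 9 tested, 2 (Thy1 and Eng) were at an unadjusted p under 0.05, beside 10.7% of all tested genes. The edgeR alternative was not run, since the deposited unit is FPKM. Depth limits Lepr most, with 14 to 143 fragments per library.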
